A study of Arabidopsis thaliana with 14 samples.

Results

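Cytochrome P450 genes were examined in whole roots of Arabidopsis thaliana seedlings during a time course of iron deficiency. A probe set was taken as a member when the platform's probe table paired it with exactly 1 gene whose symbol was CYP followed by digits and a letter. The rule gave 23 of 22810 probe sets, or 23 of the 13513 that were paired with 1 gene. Each stood for a different gene, 23 of the 13356 genes that these 13513 represent. Of the 23, 19 belonged to the CYP71B subfamily of family CYP71. The other 4 were CYP51G2, CYP78A9, CYP79A2 and CYP84A4, each the lone member of its family. The reference gene table lists 236 Arabidopsis genes with such a symbol, so the probe sets described here cover 23 of 236 and nearly all of them fall in a single subfamily. Another 2 probe sets were paired with a CYP gene together with a different gene and were left out.

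Cytochrome P450s are enzymes that hold a heme iron at their active site and use molecular oxygen to oxidise their substrates. In plants most of them sit in the membrane of the endoplasmic reticulum and receive electrons from a reductase. They make and break down sterols, hormones, phenylpropanoids, glucosinolates and other defence compounds, and CYP71 is a large plant family with many members in secondary metabolism.

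Seedlings of the Columbia ecotype grew on standard medium for 5 days, and each biological replicate pooled about 320 roots. The control group was moved to fresh standard medium, which holds Fe(III)-EDTA, for 3 h. The other 6 groups were moved to medium that held 0.3 mM Ferrozine, a chelator of ferrous iron, in place of the iron salt, for 3, 6, 12, 24, 48 or 72 h. Each of the 7 groups had 2 arrays, 14 in all. The control shares its time after transfer with the 3 h group alone. According to the labels all roots were harvested within 3 h of each other on the sixth day, a statement that conflicts with 5 days of growth followed by 48 or 72 h without iron. How old those roots were at harvest is therefore unknown here.

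The arrays fell into an earlier set (the 10 arrays of standard medium and 3 to 24 h) and a later set (the 4 arrays of 48 and 72 h). The geometric mean signal of the spike-in controls was 2172 to 3232 in the earlier set and 377.9 to 440 in the later set, and all 18 spike-in probe sets separated the sets. No group had arrays in both. For every comparison of 48 or 72 h with standard medium, the time and the array set therefore cannot be told apart. A listed gene counts as measured here when the probe table pairs a probe set with that gene alone. The root hair markers, of which 2 of 5 were measured, had a summed signal of 2293 to 3345 on standard medium, 1387 to 1598 at 3 h, 1300 to 1458 at 6 h, 1268 to 1387 at 12 h, 1078 to 1385 at 24 h, 406 to 428 at 48 h and 185 to 246 at 72 h. Of these, EXPA18 was called lower from 6 h on and EXPA7 from 12 h on. The green tissue markers, with 2 of 6 measured, summed to 614 to 674 on standard medium, 641 to 1120 at 24 h, 122 to 126 at 48 h and 81.2 to 102 at 72 h. The single measured endodermis marker, SGN3 (1 of 6), and the single measured marker of dividing cells, MCM7 (1 of 4), passed no test against standard medium, and 0 of the xylem, phloem and root cap markers were measured. The part of these differences in the P450 values was not tested. In whole roots, fewer cells of a type and less RNA per cell cannot be told apart.

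Of the 23 members, 8 were bright enough to be tested: CYP71B6, CYP71B23, CYP71B26, CYP71B28, CYP71B29, CYP71B34, CYP71B37 and CYP84A4. The other 15 had a mean log2(signal + 16) below 6.04, under which the dimmest 40% of probe sets were left out; on 1 array this value corresponds to a signal of 49.6, called the filter level here. A probe set was called when its adjusted p in limma, over all 13648 probe sets tested, was under 0.05. Fold changes were taken between means of log2(signal + 16), where the added 16 shrinks the change of dim genes. Since members with a high level in some groups pass the filter more easily, the 8 are not a sample of the 23.

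During the first day, CYP71B6 at 12 h was the 1 call among the 8 tested members, and it was lost without replicate 2 of 12 h (adjusted p = 0.0538). Against standard medium, 0 of the 8 tested members were called at 3 h, where 0.022% of all tested probe sets were called. The count was also 0 of 8 at 6 h, with 0.945% of all probe sets called. At 12 h 1 of 8 was called, CYP71B6, with a background of 2.63%. At 24 h 0 of 8 were called, with a background of 3.62%. With limma, the members with an unadjusted p under 0.05 numbered 1 at 3 h and 2 at each of 6, 12 and 24 h. The share of all tested probe sets with such a p was not computed, so these counts cannot be set against a background. The moderated F test over the 4 comparisons, fitted on the 10 earlier arrays alone, called 1 of 8 members, again CYP71B6 (adjusted p = 0.043), where 2.39% of all probe sets were called.

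CYP71B6 (AT2G24180, on chromosome 2) encodes an enzyme that oxidises indole-3-acetonitrile, a nitrile that arises in tryptophan-derived metabolism, towards indole-3-carboxylic acid. Its signal was 743 and 624 on the 2 arrays of standard medium, 881 and 906 at 3 h, 1150 and 1085 at 6 h, and 1169 and 1677 at 12 h. At 24 h it was 1098 and 926, at 48 h 2057 and 1805, and at 72 h 2004 and 1735. Both standard arrays were lower than each of the 12 arrays without iron, and the 4 arrays of the later set were higher than each of the earlier ones. From a mean signal of 684 ± 84.5 (SD, n = 2) on standard medium, CYP71B6 rose to 1423 ± 359 (SD, n = 2) at 12 h, a log2 fold change of 1.02 ± 0.18 (SE; adjusted p = 0.00254). This call rested on the brighter 12 h array: without replicate 2 of 12 h the log2 fold change was 0.77 with an adjusted p of 0.0538, and 0 of 8 members were called. The log2 fold change was 0.38 at 3 h (adjusted p = 0.678), 0.70 at 6 h (adjusted p = 0.0782) and 0.55 at 24 h (adjusted p = 0.114), none of which passed. When either replicate of 12 h was left out, arrays that lie outside that comparison but enter the estimate of the spread, CYP71B6 was called at 6 h and the count there was 1. The F test call was lost when any 1 of its 10 arrays other than replicate 1 of 12 h was left out. CYP71B6 was higher at 48 h by 1.48 ± 0.18 (SE; adjusted p = 2.80e-06) and at 72 h by 1.43 ± 0.18 (SE; adjusted p = 3.47e-06), and these calls were kept when any 1 array was left out.

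**Figure D1:**
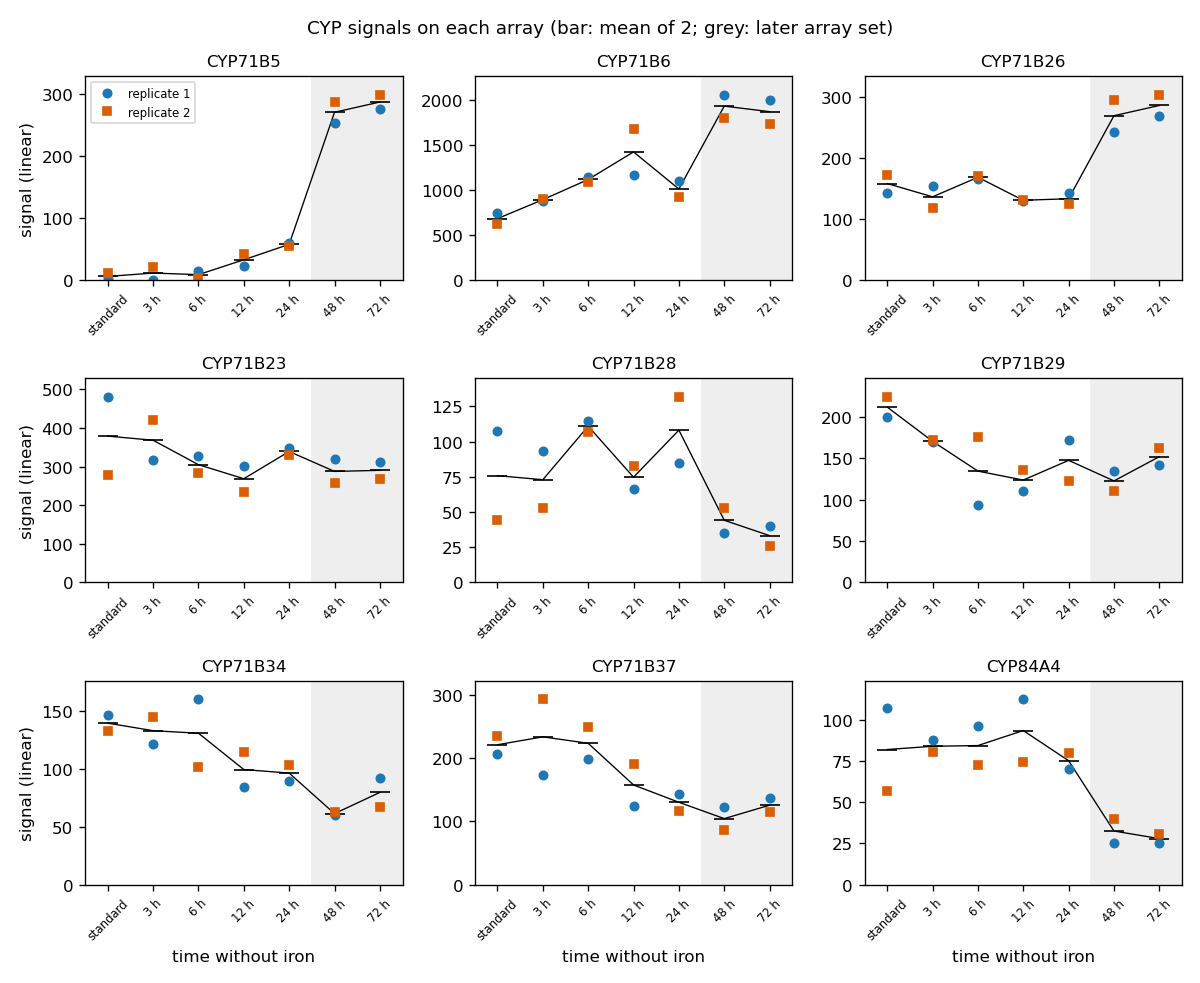
Linear signal of the 8 tested members and of CYP71B5 on each of the 14 arrays, by time without iron; circles and squares are replicates 1 and 2, short bars joined by lines are means of 2 arrays, and the grey area holds the later array set. CYP71B6 lies at 624 to 743 on standard medium and at 1735 to 2057 at 48 and 72 h, while CYP84A4 lies at 25.3 to 39.7 there against 56.7 to 107 on standard medium.

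At 48 and 72 h most of the 8 members that passed the filter were called against standard medium. CYP71B6 and CYP71B26 were higher and the others called were lower. At 48 h, 6 of 8 were called, where 31.4% of all tested probe sets were. Of these 2 were higher, with 15.9% of all probe sets called higher, and 4 were lower, with 15.6% called lower. At 72 h, 5 of 8 were called against a background of 35.9%. Again 2 were higher (background 18.3%) and 3 were lower (background 17.6%). The median log2 fold change of the 8 was -0.63 at 48 h and -0.58 at 72 h, beside 0.06 and 0.07 over all tested probe sets. The balance of directions among the calls depended on the filter. Of all log2 fold changes of members, 6 of 8 were negative at both times with the filter. With no filter 16 of 23 were negative at 48 h and 17 of 23 at 72 h. Among all tested probe sets, 54.4% were positive at 48 h and 54.3% at 72 h, and with no filter 46.2% and 46.4%. With no filter, all 23 members were tested. At 48 h, 5 of 23 were then called, 3 higher and 2 lower, with 18.5% of all probe sets called in either direction. At 72 h, 4 of 23 were called, 3 higher and 1 lower, with 21.5% of all probe sets called in either direction. Both counts were near the share of all probe sets. The median of the 23 was -0.15 at 48 h and -0.17 at 72 h, beside -0.05 over all probe sets at both times. The counts depended on single arrays. At 48 h the count fell to 3 when standard replicate 1 was left out and to 3 when replicate 2 of 48 h was. At 72 h it fell to 1 when standard replicate 1 was left out, to 3 for replicate 1 of 72 h and to 2 for replicate 2 of 72 h. Without standard replicate 2 the members called changed: the count was 7 at 48 h and 5 at 72 h, with CYP71B23 and CYP71B28 called lower at both times, CYP71B29 no longer called at 48 h, and CYP71B34 and CYP71B37 no longer called at 72 h.

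**Figure D2:**
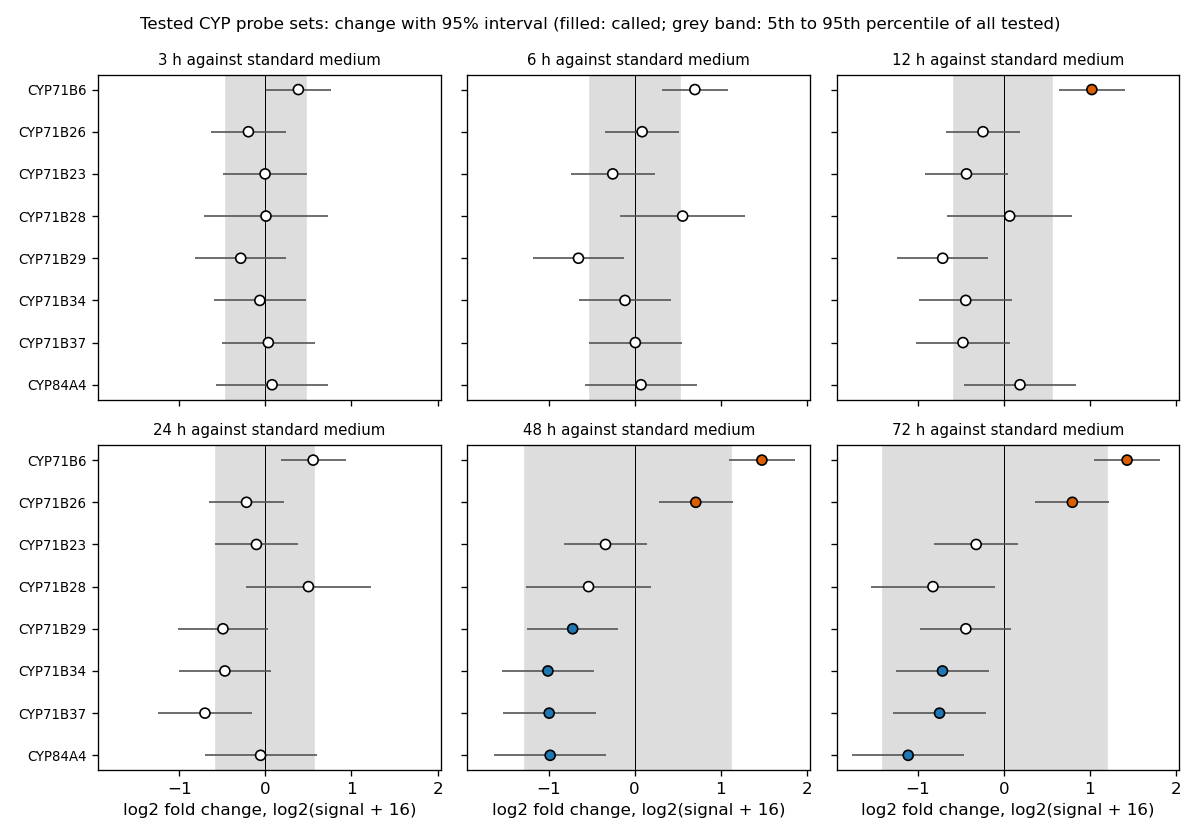
Log2 fold change of the 8 tested members against standard medium at each time, on the log2(signal + 16) scale, with 95% intervals; filled points were called and the grey band spans the 5th to the 95th percentile of all 13648 tested probe sets. At 12 h the filled point is CYP71B6 at 1.02, and at 48 and 72 h CYP71B6 lies above the band, at 1.48 and 1.43.

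CYP84A4 (AT5G04330, on chromosome 5) encodes a hydroxylase of p-coumaraldehyde in the synthesis of arabidopyrones, which are phenylpropanoid derivatives. Its signal was 107 and 56.7 on standard medium, 87.5 and 80.5 at 3 h, 96.5 and 72.5 at 6 h, 113 and 74.5 at 12 h, and 70.5 and 80.0 at 24 h. It was 25.3 and 39.7 at 48 h and 25.4 and 30.5 at 72 h. The 10 earlier arrays overlapped across groups, and the 4 later arrays lay below all of them. CYP84A4 was lower than on standard medium by a log2 fold change of -0.98 ± 0.31 (SE; adjusted p = 0.0206) at 48 h and -1.11 ± 0.31 (SE; adjusted p = 0.00855) at 72 h. From 3 to 24 h its log2 fold change lay between -0.06 and 0.19. Both calls rested on the brighter standard array: without standard replicate 1 the adjusted p was 0.246 at 48 h and 0.139 at 72 h. Leaving out the first replicate of the treated group also ended the call, with an adjusted p of 0.186 at 48 h and of 0.0678 at 72 h. The call at 48 h was lost under quantile normalization (adjusted p = 0.0608) and with no filter (adjusted p = 0.0502) too.

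Many of the CYP71B members lie in groups of neighbours, while CYP71B6 and CYP71B38 lie apart from the other members. In the reference annotation (TAIR10.1), 16 of the 23 members lie on chromosome 3, and 11 of these form a run from CYP71B16 (AT3G26150) to CYP71B37 (AT3G26330). Of the 11, 4 were tested: CYP71B23, CYP71B26, CYP71B34 and CYP71B37. CYP71B34, CYP71B35, CYP71B36 and CYP71B37 follow each other with 0 genes between them, and 0 protein-coding genes lie between CYP71B26 and CYP71B34. The probe table pairs all 23 member probe sets with a plain suffix, which the manufacturer uses for probe sets designed against a single transcript. Cross-hybridisation between such close relatives was not tested.

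CYP71B26 (AT3G26290) was the 1 gene of that run called higher at 48 and 72 h. Its signal was 144 and 173 on standard medium, 155 and 118 at 3 h, 166 and 171 at 6 h, 130 and 132 at 12 h, and 143 and 124 at 24 h. It was 244 and 296 at 48 h and 269 and 304 at 72 h. All 10 earlier arrays lay at 118 to 173 and all 4 later arrays above them. The log2 fold change was 0.71 ± 0.21 (SE; adjusted p = 0.0122) at 48 h and 0.80 ± 0.21 (SE; adjusted p = 0.00491) at 72 h, after values of -0.24 to 0.09 from 3 to 24 h. Both calls were lost without standard replicate 1 (adjusted p = 0.0987 at 48 h and 0.0518 at 72 h). Leaving out replicate 2 of 48 h (adjusted p = 0.138) or replicate 2 of 72 h (adjusted p = 0.0556) also ended the call at that time.

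Its neighbour CYP71B34 (AT3G26300) was lower at the same times. The signal was 146 and 133 on standard medium, 121 and 145 at 3 h, 160 and 101 at 6 h, 83.9 and 115 at 12 h, and 89.3 and 103 at 24 h. It was 59.97 and 62.7 at 48 h and 92.3 and 67.0 at 72 h. The arrays of 12 h and later all lay below both standard arrays, and the 72 h arrays overlapped those of 12 and 24 h. The log2 fold change was -0.44 at 12 h (adjusted p = 0.49), -0.47 at 24 h (adjusted p = 0.447), -1.01 ± 0.26 (SE; adjusted p = 0.0052) at 48 h and -0.71 ± 0.26 (SE; adjusted p = 0.0364) at 72 h. The call at 48 h was kept when any 1 array was left out. The call at 72 h was lost without standard replicate 1 (adjusted p = 0.143), standard replicate 2 (adjusted p = 0.0742) or replicate 2 of 72 h (adjusted p = 0.259). It was also lost under quantile normalization (adjusted p = 0.0561), under median centring (adjusted p = 0.0525) and with no filter (adjusted p = 0.0767).

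CYP71B37 (AT3G26330), at the end of the run, had a signal of 207 and 235 on standard medium, 174 and 294 at 3 h, 198 and 249 at 6 h, 125 and 190 at 12 h, and 144 and 117 at 24 h. At 48 h it was 122 and 86.8, and at 72 h 137 and 114. As with CYP71B34, every array of 12 h and later lay below both standard arrays. CYP71B37 was at -0.47 at 12 h and -0.70 at 24 h on the log2 scale (adjusted p = 0.455 and 0.184). It was called at 48 h (-0.99 ± 0.26 SE, adjusted p = 0.00602) and at 72 h (-0.75 ± 0.26 SE, adjusted p = 0.0297). With limma the unadjusted p was 0.0137 at 24 h and 0.00935 at 72 h, before the adjustment within each comparison. The call at 48 h was lost without replicate 2 of 48 h (adjusted p = 0.0932). The call at 72 h was lost with no filter (adjusted p = 0.0609) and without any 1 of the 4 arrays compared (adjusted p = 0.0625 to 0.17).

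CYP71B23 (AT3G26210), the remaining tested gene of the run, had no call with all 14 arrays, and was called lower at 48 and 72 h when standard replicate 2 was left out. Its standard arrays were at 480 and 277, and the other 12 arrays at 234 to 420. At 48 h its log2 fold change was -0.34 with a 95% interval of -0.82 to 0.15, so a fall of the size seen for CYP71B29 would lie inside the interval.

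**Figure D3:**
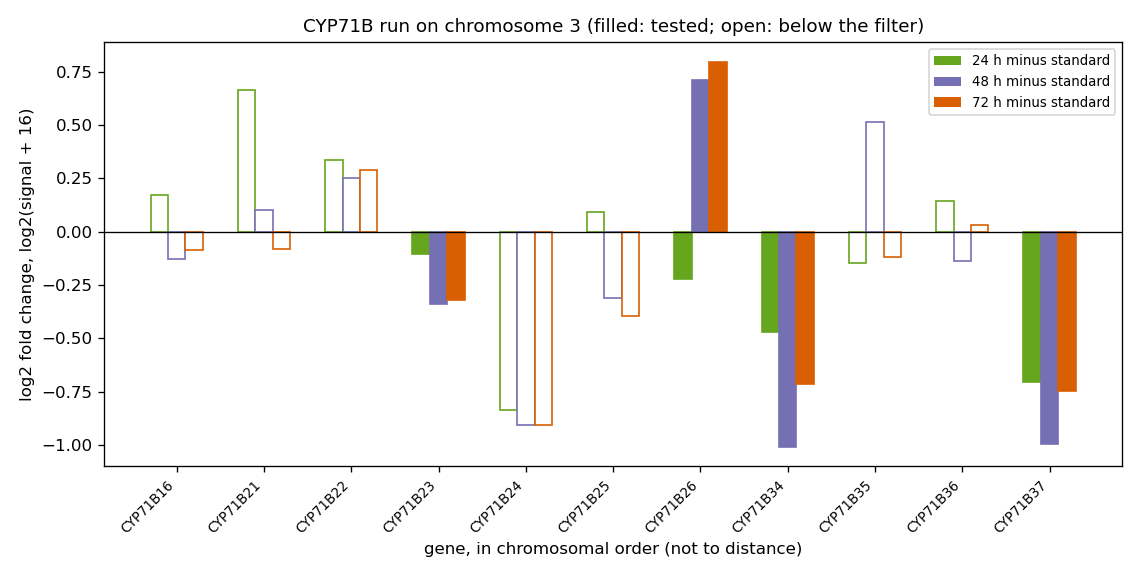
Log2 fold change against standard medium at 24, 48 and 72 h, on the log2(signal + 16) scale, for the 11 CYP71B genes of the run on chromosome 3, in chromosomal order without distances; filled bars are tested genes and open bars are genes below the filter on low signal. CYP71B26 stands at 0.71 and 0.80 at 48 and 72 h, next to CYP71B34 at -1.01 and -0.71.

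Another group of neighbours lies on chromosome 1, with CYP71B27, CYP71B28 and CYP71B29. CYP71B29 (AT1G13100) had a signal of 200 and 224 on standard medium, 170 and 172 at 3 h, 93.4 and 176 at 6 h, 111 and 137 at 12 h, 172 and 123 at 24 h, 134 and 111 at 48 h, and 142 and 163 at 72 h. Each of the 12 arrays without iron lay below both standard arrays. The log2 fold change was -0.29 at 3 h, -0.65 at 6 h, -0.71 at 12 h, -0.49 at 24 h, -0.72 ± 0.25 (SE) at 48 h and -0.44 at 72 h. Of these the 48 h value passed (adjusted p = 0.0351), and the adjusted p at 12 h, where the size was nearly equal, was 0.185. The call at 48 h was lost with no filter (adjusted p = 0.0716) and without any 1 of the 4 arrays compared (adjusted p = 0.0723 to 0.207). CYP71B28 (AT1G13090), directly beside it, was at 44.2 to 132 on the earlier arrays and at 26.2 to 53.0 on the later ones. It was not called at 48 h (-0.53, adjusted p = 0.26) or at 72 h (-0.82 ± 0.35, SE; adjusted p = 0.0713).

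Each array set also held 1 comparison between times without iron. Between 24 and 3 h, where the means compared come from neither the standard arrays nor the later set although all 14 arrays enter the filter and the spread, 0 of 8 were called, with 2% of all probe sets called. With limma 1 of the 8, CYP71B37, had an unadjusted p under 0.05 there, at a log2 fold change of -0.74 (adjusted p = 0.217). Between 72 and 48 h, both in the later set, 0 of 8 were called, where 0.0147% of all probe sets were. There 0 of 8 had an unadjusted p under 0.05 in limma. The share of all probe sets with such a p was not computed for either comparison. The 8 log2 fold changes between 72 and 48 h lay between -0.29 and 0.29.

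Of the 15 members that were not tested, CYP71B5 (AT3G53280, on chromosome 3) had the widest range, and it was singled out after its values had been seen. Its signal was 1.36 and 10.9 on standard medium, 1.12 and 21.998 at 3 h, 14.9 and 3.10 at 6 h, 23.6 and 42.4 at 12 h, and 60.5 and 55.3 at 24 h. It was 254 and 288 at 48 h and 276 and 299 at 72 h. The first 3 groups overlapped, both 12 h arrays lay above them, both 24 h arrays lay above those of 12 h, and the later set lay above all others. The probe set missed the filter by little, with a mean log2 value of 5.99 against 6.04, because most of its arrays were dim.

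With no filter, which tests all 22746 probe sets, CYP71B5 was higher at 24 h by 1.77 ± 0.40 (SE; adjusted p = 0.0337), at 48 h by 3.73 ± 0.40 (SE; adjusted p = 5.91e-06) and at 72 h by 3.81 ± 0.40 (SE; adjusted p = 3.65e-06). With no filter 1.67% of all probe sets were called at 24 h, 18.5% at 48 h and 21.5% at 72 h. At 12 h the log2 fold change was 1.16 (adjusted p = 0.233), and at 3 and 6 h it was 0.24 and 0.17. The size depends on the pseudocount because the standard arrays are near 0: with no filter it was 5.68 with a pseudocount of 1 and 2.26 with a pseudocount of 64 at 48 h. The calls at 48 and 72 h were kept when any 1 array was left out, again with no filter.

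The call of CYP71B5 at 24 h was less firm. It was lost in 12 of its 24 alternatives. With no filter, it was lost in the fit of the 10 earlier arrays (adjusted p = 0.118) and with a pseudocount of 1 (adjusted p = 0.0844). Also with no filter, it was lost in the fit of the 4 compared arrays alone and with a prior variance that does not follow the mean. The same happened when standard replicate 1 was left out (adjusted p = 0.254), standard replicate 2 (adjusted p = 0.0517), replicate 1 of 24 h (adjusted p = 0.221), replicate 2 of 24 h (adjusted p = 0.193) or any 1 of the 4 later arrays (adjusted p = 0.0642 to 0.0646). Between 24 and 3 h with no filter, the log2 fold change was 1.53 (adjusted p = 0.119), where 0.928% of all probe sets were called. The F test over the first day with no filter gave an adjusted p of 0.294, with 0.791% of all probe sets called.

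On the chromosome, CYP71B5 is followed by CYP71B30P (AT3G53290), which stayed at or below 20.4 on all 14 arrays. CYP71B31 (AT3G53300), the next member after it, stayed at or below 20.1. Levels of different probe sets cannot be set against each other.

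The remaining dim members include 3 with known or inferred roles. CYP79A2 (AT5G05260) converts phenylalanine to its aldoxime in the synthesis of benzylglucosinolate, and its signal was 0.63 to 28.1. CYP78A9 (AT3G61880), which promotes fruit and seed growth, was at 2.82 to 50.8, and 1 of its 14 arrays exceeded the filter level. CYP51G2 (AT2G17330), a relative of the sterol 14-demethylase that the reference annotation lists as a transcribed pseudogene, was at 15.7 to 60.9 and exceeded the filter level on 3 arrays. CYP71B27 (AT1G13070), listed in the same way, was at 1.07 to 37.0.

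Across the 15 untested members, 10 of 210 values exceeded the filter level, and 6 of these belonged to CYP71B5. For 12 of the 15, no array exceeded it. Replicates of these genes differed more: the median difference between the 2 arrays of a group was 0.428 on the log2 scale for the untested members and 0.255 for the tested ones, beside 0.346 and 0.214 for all untested and all tested probe sets. How large a difference between groups could be detected for these genes was not computed, and differences larger than that spread also went uncalled. With no filter, CYP71B16 at 12 h (1.28, adjusted p = 0.102), CYP71B21 at 6 h (0.88, adjusted p = 0.326) and CYP71B27 between 24 and 3 h (1.18, adjusted p = 0.368) had an unadjusted p under 0.05 and were not called.

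**Figure D4:**
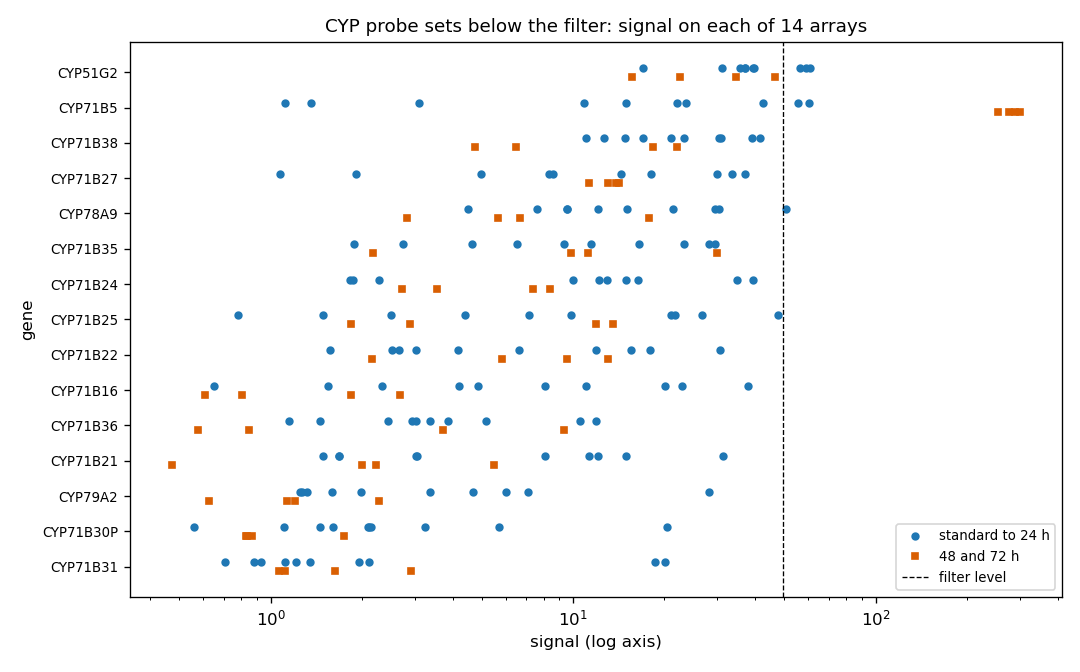
Signal of the 15 members below the filter on each of the 14 arrays, on a log axis; circles are the 10 arrays of standard medium to 24 h, squares the 4 arrays of 48 and 72 h, and the dashed line is the filter level of 49.6. CYP71B5 reaches 254 to 299 at 48 and 72 h, and 12 of the 15 genes stay left of the line on every array.

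Few of the genes listed for electron or heme supply to P450 enzymes were measured. Of the 12 listed for electron supply 1 was measured, ATR3 (AT3G02280), which encodes a diflavin reductase. Whether ATR3 passes electrons to P450 enzymes was not tested, so its values are not a measure of P450 electron supply. ATR3 had a mean signal of 88.9 ± 10.3 (SD, n = 2) on standard medium, 145 ± 11.9 at 48 h and 173 ± 1.89 at 72 h, and it was called higher at both times (0.62, adjusted p = 0.0347, and 0.86, adjusted p = 0.00439), where 31.4% and 35.9% of all tested probe sets were called. The genes of the main microsomal P450 reductases, ATR1 and ATR2, were not analysed here.

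Of 24 genes for heme synthesis and breakdown, 8 were measured and 6 were tested, and 0 of the 6 were called from 3 to 24 h, where 0.022% to 3.62% of all tested probe sets were. At 48 h 1 of 6 was called and at 72 h 2 of 6, beside 31.4% and 35.9% of all tested probe sets. HEMB1, which encodes the enzyme that makes porphobilinogen, was lower at 48 h by a log2 fold change of -0.58 (adjusted p = 0.0157) and at 72 h by -0.46 (adjusted p = 0.0467). HEMB2, its paralog, was called at 72 h alone (-0.99, adjusted p = 0.0107), with -0.55 at 48 h (adjusted p = 0.162). HEMA2, GSA1, HEME1 and HEME2 were not called against standard medium at any time. The median of the 6 was 0.12 at 48 h and 0.13 at 72 h, beside 0.06 and 0.07 over all tested probe sets.

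Of a list of 30 genes of glucosinolate and camalexin metabolism, 2 were measured and both were tested. Both were called higher at 48 and 72 h, where 31.4% and 35.9% of all tested probe sets were called in either direction. UGT74B1, a glucosyltransferase of glucosinolate synthesis, was at 417 ± 45.2 (SD, n = 2) on standard medium, 654 ± 156 at 48 h and 766 ± 259 at 72 h. It was higher by 0.62 (adjusted p = 0.0447) and 0.82 (adjusted p = 0.00803) on the log2 scale. BCAT4, an aminotransferase of methionine-derived glucosinolates, was at 45.1 ± 7.67 on standard medium, 209 ± 57.2 at 48 h and 253 ± 16.4 at 72 h, with log2 fold changes of 1.86 (adjusted p = 2.86e-05) and 2.14 (adjusted p = 4.29e-06). Neither was called from 3 to 24 h. As for the members, these values at 48 and 72 h cross the array sets.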

How the data were processed

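RNA from whole roots was hybridised to Affymetrix arrays after one-cycle amplification with biotin, per the labels' protocols. The deposited values are intensities per probe set, not log-transformed. The submitters' processing notes name MAS5 as the authors' software, and its version is not given in the sources used here. Their scaling was kept. Gene symbols came from the platform's probe table, and all 23 members' symbols matched the RefSeq gene table (TAIR10.1). The genome build behind the probe table is not given in the sources used here, so gene order is reported without coordinates.

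The 64 control probe sets were left out. Signals were turned into log2(signal + 16), and probe sets in the lowest 40% of mean log2 value were dropped. For the 13648 that passed, limma 3.58.1 was run in R 4.3.3 with a mean per group, all 14 arrays and 7 residual degrees of freedom, a prior variance that follows the mean, and Benjamini-Hochberg adjustment within each comparison. The scale of the mean used for the filter was settled after values had been seen, and it decides whether CYP71B5 is tested. The code was tested on simulated data.

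Named were all members called up to 24 h, between 24 and 3 h, between 72 and 48 h or by the F test, those called at 48 or 72 h with arrays that did not overlap the standard arrays, and members with known roles. CYP71B5 and the members without a call were named in addition. The members, lists and rules were chosen with earlier results of these data known. P-values rest on the spread between the 2 biological replicates of a group, pooled over all groups in the fit and moderated by the prior variance. The number of arrays limits the precision. Alternatives covered normalization, pseudocount, filter, prior, arrays in the fit, the replicate block and each array left out. Sequences and detection calls were not used here.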

Additional observations from a re-analysis of the deposited data

How the results depend on the processing

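The 15 log2 fold changes of called members, including CYP71B5 with no filter, were recomputed in 368 alternatives: 328 kept direction and call, 40 lost the call and 0 reversed. The calls of CYP71B6 at 48 and 72 h, CYP71B34 at 48 h, and CYP71B5 at 48 and 72 h were kept in each of theirs. The adjusted p of CYP71B6 at 12 h ranged from 0.00161 to 0.0538. With each array left out in turn, the number of members called was 0 to 0 at 3 h, 0 to 1 at 6 h, 0 to 1 at 12 h, 0 to 0 at 24 h, 3 to 7 at 48 h, 1 to 5 at 72 h, 0 to 0 between 24 and 3 h and between 72 and 48 h, and 0 to 1 by the F test. With no filter 1 member was called at 24 h, CYP71B5. With the filter on the mean linear signal, CYP71B5 entered through its signals at 48 and 72 h. The count was then 1 at 24 h and 1 between 24 and 3 h, and these calls are not separate support. A first exploratory fit used that filter, and the log2 scale was taken as main once values had been seen. With the filter at the 60th percentile, 5 members were tested and 3 called at 72 h, the fewer tested probe sets being part of that setting. The F test called 0 members under median centring, with no filter and with no trend, and the cause was not tested. The labels do not say whether a replicate number is shared across groups. Over 21 pairs of groups, the correlation of same-numbered deviations was -0.143 to 0.266, with a median of 0.0492 and 4 over 0.1. These correlations cannot show whether the samples were paired. With the replicate block 1 member was called at 12 h, 6 at 48 h, 5 at 72 h and 1 by the F test, as without it. Signals near 0 in MAS5 limit what can be said of the 15 untested members.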
